A study of Mus musculus with 19 samples.

Results

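Potassium channel genes were described across 5 cell populations of mouse hindlimb muscle. They were the 92 of 23521 listed genes whose symbol was Kcn followed by lower-case letters and a number, and each held a numeric value in every library. The study sequenced poly(A) RNA of 19 libraries from dissociated hindlimb muscle of C57BL/6J mice. All 5 groups carried the same treatment, 2.5 mg tamoxifen daily for 5 days from 8 weeks of age and then a washout of 10 days, and the labels name no allele on which it would act. Whole (4 libraries) was titled a suspension of mononuclear cells, although its columns in the deposited table are headed whole muscle, so that the material sequenced is uncertain. LinPos (4 libraries) was the sorted lineage-positive fraction, described as endothelial and blood-derived cells, and LinNeg (4 libraries) the cells without lineage markers. A further sort on the surface protein Sca1 split the latter into LinNegSca1Neg (4 libraries) and LinNegSca1Pos (3 libraries), described as mesenchymal progenitors. Whether replicates were separate animals is not stated, and p values therefore cover only the spread between libraries, which may be technical.

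Potassium channels let potassium leave or enter a cell through a narrow selective pore and so set its resting voltage, end its action potentials and limit its calcium entry. Voltage-gated channels assemble from 4 alpha subunits and open on depolarisation. Inward rectifiers hold the voltage near rest, and some of them close when ATP is plentiful. Leak channels, whose subunits hold a pair of pore domains each, conduct at rest. A further class opens when calcium or sodium rises in the cell, and auxiliary subunits form no pore but alter the gating or the number of channels at the surface. In muscle, fibres use these channels to repolarise and to hold a stable rest, smooth muscle and pericytes use them to set vessel tone, glia of the nerve buffer potassium, and leukocytes use them to sustain calcium signals.

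By symbol, 40 of the 92 genes encoded voltage-gated alpha subunits, 15 inward rectifiers, 14 leak channels with a pair of pore domains, 8 channels activated by calcium or sodium and related ones, and 15 auxiliary subunits. The property that joins the first 4 of these classes and sets them apart from the auxiliary subunits is the selectivity filter of the pore. Its coding sequence was searched in frame in the coding sequences of the GENCODE vM21 annotation (build GRCm38, also named mm10) as 5 successive codons on the sense strand (15 bases): any threonine codon, a codon with T as its middle base, any glycine codon, a codon that starts with T, and any glycine codon. This pattern was found in 64 of the 92 genes, or 69.6%, and in 187 of 21562 protein-coding genes, or 0.867%. Of the voltage-gated alpha subunits 33 of 40 matched it, of the inward rectifiers 14 of 15, of the leak channels 12 of 14, of the calcium- or sodium-activated channels 5 of 8 and of the auxiliary subunits 0 of 15. A filter that departs from the pattern at any of the 5 codons, such as one that starts with a codon other than threonine, is missed by this search. A gene without a match may therefore still hold a filter. Genes without a match included Kcnh2, Kcnk1, Kcnn1, Kcnn2 and Kcnn3. A match more than once in 1 coding sequence occurred in 11 of the 14 leak channels and in no other of the 92 genes. Below are 45 coding bases around the first match of 12 pore-forming genes, chosen from all 4 pore-forming classes among those described at length, written 5′ to 3′ on the strand of the gene, with the 15 matched bases in capitals.
Kcna7: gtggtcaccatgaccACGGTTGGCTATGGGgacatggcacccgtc
Kcna1: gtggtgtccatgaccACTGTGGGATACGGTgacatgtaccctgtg
Kcna5: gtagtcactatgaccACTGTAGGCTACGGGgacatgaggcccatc
Kcnc1: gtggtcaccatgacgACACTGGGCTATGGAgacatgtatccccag
Kcnj11: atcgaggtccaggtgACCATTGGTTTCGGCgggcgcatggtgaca
Kcnj8: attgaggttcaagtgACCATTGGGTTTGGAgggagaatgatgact
Kcnj2: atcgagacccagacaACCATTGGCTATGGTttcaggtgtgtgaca
Kcnk5: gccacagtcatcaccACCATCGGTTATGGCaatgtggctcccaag
Kcnk6: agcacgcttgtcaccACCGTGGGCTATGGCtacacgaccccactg
Kcnk2: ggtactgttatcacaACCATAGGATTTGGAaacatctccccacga
Kcnma1: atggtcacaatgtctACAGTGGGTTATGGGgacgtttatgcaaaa
Kcnn4: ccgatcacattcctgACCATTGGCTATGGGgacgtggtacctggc
Between the 13 pairs of these windows from 1 class, 24 to 36 of the 45 bases were identical (median 31), and between the 53 pairs from different classes 13 to 32 (median 21). The inward rectifiers Kcnj11 and Kcnj8 shared 35 bases. The windows were chosen and aligned on the pattern, whose fixed bases are identical in every pair, so part of each number was set by the search. How many bases unrelated windows aligned in this way would share was not tested. A match describes the sequence only.

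Levels are given in FPKM, a fragment number divided by transcript length and by the mapped fragments of the library, which allows levels of different genes to be set side by side. The numbers of genes at 1 FPKM or more ran from 10737 to 12517 per library, and the sequencing depth was not stated. Markers of the cell types that could be in these fractions were summed in each library. The sum of 12 myofibre markers was 91093 to 112801 FPKM in Whole, 3486 to 25444 in LinNegSca1Neg, 1729 to 11985 in LinNeg, and 74 to 234 and 80.7 to 341 in LinPos and LinNegSca1Pos. Replicates 3 and 4 of LinNegSca1Neg and replicate 3 of LinNeg stood far above the other libraries of their groups in that sum. Of the other lists, 12 mural markers and 10 nerve sheath markers summed highest in LinNegSca1Neg, at 2391 to 4217 and 1788 to 2865 FPKM. The 7 satellite cell markers summed highest there, too, at 451 to 680.5 FPKM, against 166 to 194 in LinNeg and 12.1 to 24 in LinNegSca1Pos, and all 7 were lower in LinNegSca1Pos than in LinNegSca1Neg and in LinPos than in LinNeg. Their part in the channel genes that were highest in LinNegSca1Neg was not tested. The 12 leukocyte markers and the 10 endothelial markers were highest in LinPos, at 2051 to 5259 and 652 to 1978 FPKM. The 10 mesenchymal progenitor markers were highest in LinNegSca1Pos, at 18647 to 23738 FPKM. Replicates 1 and 2 of LinPos, LinNeg and LinNegSca1Neg, named set A, were also fitted apart from replicates 3 and 4, named set B, because earlier results of these data showed them to stand apart. All Whole and LinNegSca1Pos libraries stayed in both fits, which were thus not made on separate samples. In such bulk samples, fewer cells of a type and less RNA per cell cannot be told apart.

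The leading channel gene differed between populations, except that Kcna1 led in both LinNeg and LinNegSca1Neg. Summed over the 92 genes, the level was 270.4 ± 18 FPKM in Whole (SD, n = 4), 298 ± 49.8 in LinNegSca1Neg (n = 4), 135 ± 12.8 in LinNeg (n = 4), 107 ± 8.76 in LinPos (n = 4) and 59.5 ± 9.26 in LinNegSca1Pos (n = 3). The voltage-gated Kcna7 held 33.9% of that sum in Whole, Kcna5 25.1% in LinPos, Kcna1 14.3% in LinNeg and 19.7% in LinNegSca1Neg, and the leak channel Kcnk5 23.5% in LinNegSca1Pos. Voltage-gated alpha subunits and inward rectifiers together made up most of the sum in Whole, 63.2% and 29.4%, whereas leak channels held 0.9% there. In LinNegSca1Pos the leak channels held 36.2%, more than any other class. Auxiliary subunits held 26.4% in LinPos, 24.2% in LinNeg, 28.8% in LinNegSca1Neg and 1.69% in Whole. These shares describe FPKM and not the number of channels.

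**Figure D1:**
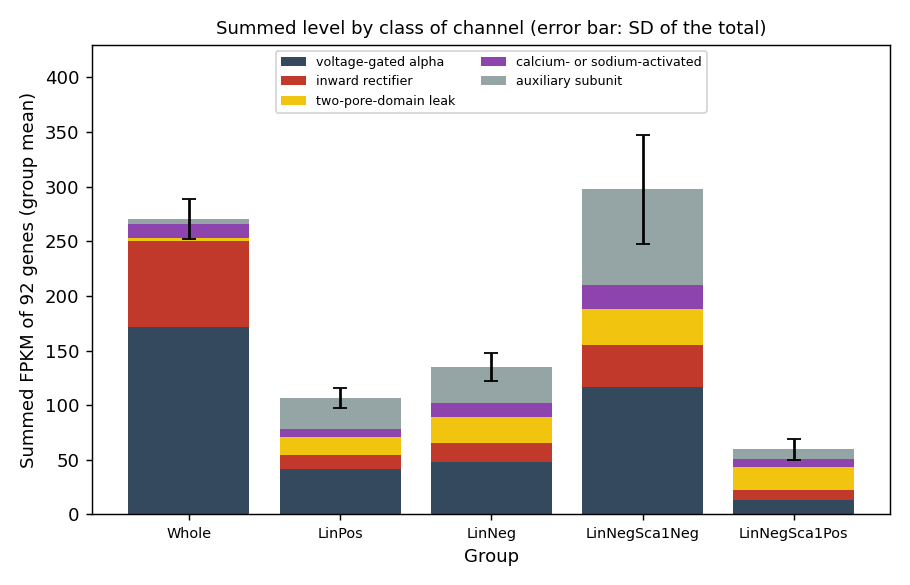
Summed FPKM of the 92 potassium channel genes in each group, stacked by class of channel from group means, with the SD of the total over libraries as the error bar (n = 4, or 3 for LinNegSca1Pos). The total stands at 270.4 ± 18 FPKM in Whole and at 59.5 ± 9.26 in LinNegSca1Pos, and the colours show voltage-gated subunits leading in Whole and leak channels in LinNegSca1Pos.

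Of the 92 genes, 37 had a mean of at least 2 FPKM in at least 1 group, and 23 a mean of at least 5. The group with the highest mean was LinNegSca1Neg for 15 of the 37, Whole for 10, LinPos for 8, LinNegSca1Pos for 3 and LinNeg for 1. For 31 of the 37 the LinNeg mean lay between the means of its Sca1 fractions, into which the sort split it. The same counts were not taken over all genes, so they are no finding about channel genes. Testing was possible for 42 genes, those that reached 1 FPKM in 3 or more of the 19 libraries. Among the 50 genes below that filter the highest group mean was 0.858 FPKM and the highest value in any library 2.43 FPKM, in Kcnj15, and 4 genes (Kcne1, Kcnk15, Kcnk16 and Kcns2) were listed at the floor of 0.001 FPKM in every library. The 5 tested genes with no group mean of 2 FPKM were Kcna3, Kcnc2, Kcnip3, Kcnj10 and Kcnn2, and the values of them given here were chosen after they were seen. By class, 17 of the 40 voltage-gated alpha subunits were tested, 5 of the 15 inward rectifiers, 6 of the 14 leak channels, 7 of the 8 calcium- or sodium-activated channels and 7 of the 15 auxiliary subunits.

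**Figure D2:**
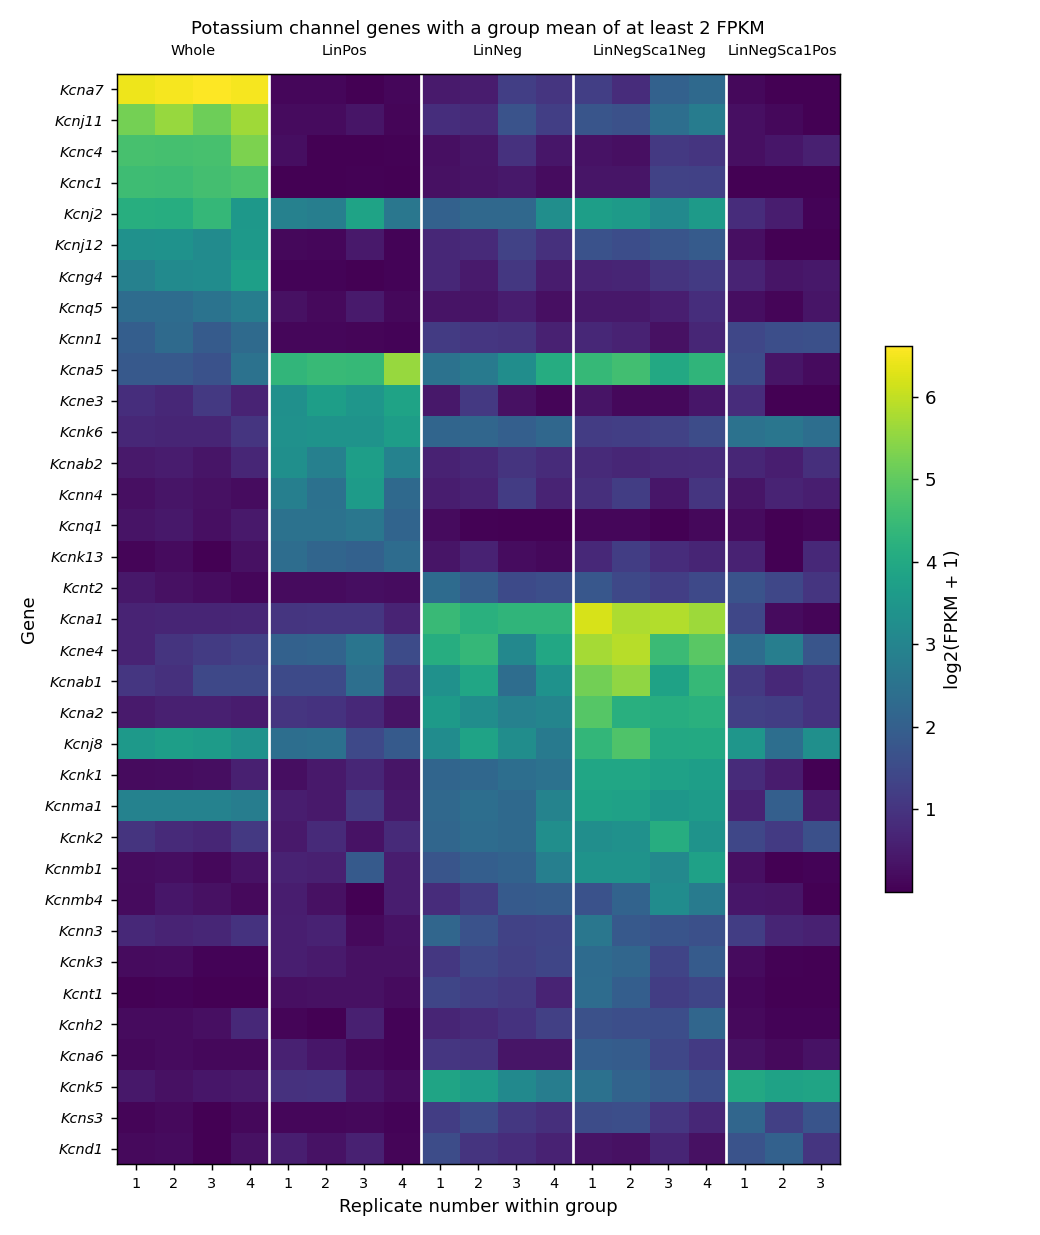
Level of 35 of the 37 potassium channel genes with a group mean of at least 2 FPKM, as log2(FPKM + 1), in each of the 19 libraries, ordered by the group in which each gene was highest. Rows are genes and columns are replicates within a group, and the bright blocks along the diagonal show sets of channels led by Whole (9 genes), LinPos (7 genes) and LinNegSca1Neg (15 genes).

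Groups were compared with limma on log2(FPKM + 1), and a gene was called when its p adjusted over all 14043 tested genes was under 0.05. The fit held no replicate block and so ignored any pairing of libraries by number. Passing the filter needed a level in some group, so that a call in some comparison, made for all 42 tested genes, is no finding about them. Genes such as Kcna3 and Kcnq1 (LinPos), Kcnj10 (LinNegSca1Neg) and Kcnq5 (Whole) reached 1 FPKM in 1 group only. They passed the filter through that group, so their calls for it are no independent support. LinPos was set against LinNeg to see which channels lay on either side of the lineage gate. Of the 42 tested genes, 9 were higher and 27 lower in LinPos and 6 were not called, which is 85.7% called, against 51.1% of all tested genes (25.3% higher and 25.8% lower). The median log2 difference was -0.72, against 0.00 over all tested genes. Leak channels were called 2 higher and 4 lower of 6, and calcium- or sodium-activated channels 1 higher and 6 lower of 7. Voltage-gated alpha subunits were 4 higher and 9 lower of 17, auxiliary subunits 2 higher and 4 lower of 7, and inward rectifiers 4 lower of 5. Within LinNeg, LinNegSca1Pos was set against LinNegSca1Neg to see the same for Sca1. There 6 genes were higher and 24 lower in LinNegSca1Pos and 12 were not called, 71.4% called against 54.5% of all tested genes (22.4% higher and 32.1% lower), with a median log2 difference of -1.26 against -0.16. All 5 tested inward rectifiers were lower.

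**Figure D3:**
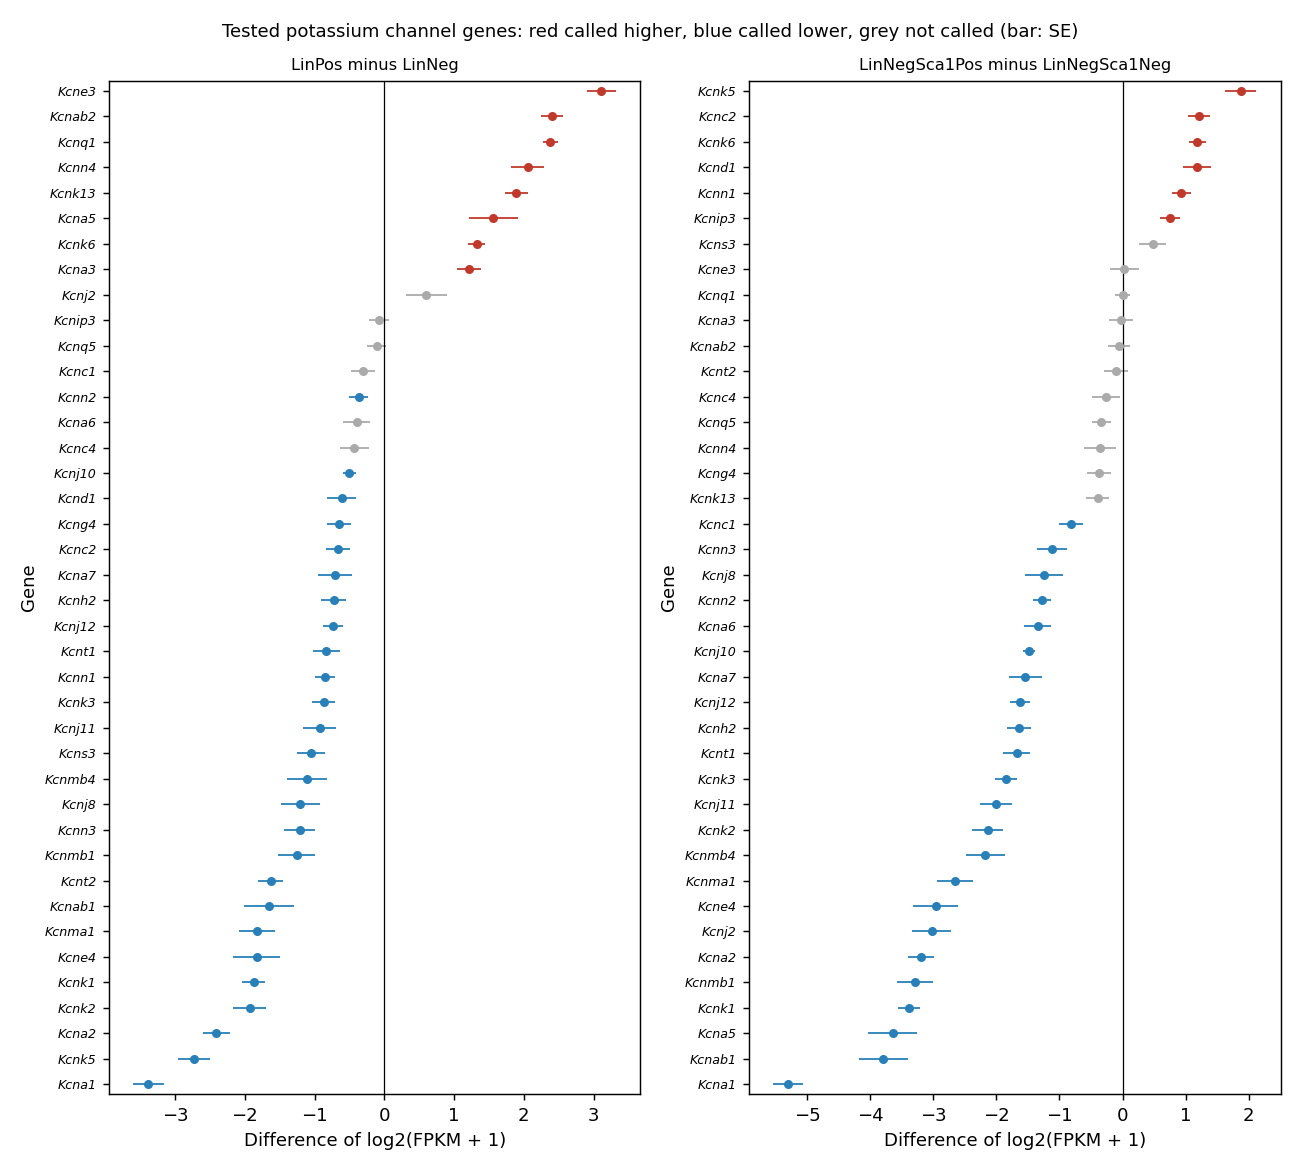
Log2 differences of 40 of the 42 tested potassium channel genes in the comparisons of LinPos with LinNeg (left) and of LinNegSca1Pos with LinNegSca1Neg (right), on the log2(FPKM + 1) scale. Points are limma estimates and bars their SE, red for 8 and 6 genes called higher, blue for 26 and 23 called lower, and grey for the rest.

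Against Whole, 22 genes were higher and 13 lower in LinNeg and 7 were not called, 83.3% called against 69.3% of all tested genes (47.5% higher and 21.8% lower), with a median log2 difference of 0.55 against 0.43. In LinPos, 11 were higher and 13 lower than in Whole and 18 were not called, 57.1% called against 71.8% of all tested genes (48.8% higher and 22.9% lower), with a median of 0.16 against 0.45. Both comparisons share the Whole libraries, and LinPos and LinNeg each enter another comparison. The balance of directions against Whole depends on the scaling. Median-of-ratios scaling moved the median of all genes by -0.31 in LinNeg against Whole and by -0.32 in LinPos against Whole, and took the share of all calls that are higher from 68.6% to 54.1% and from 68.0% to 55.7%. Under that scaling the channel genes were 21 higher and 16 lower in LinNeg and 10 higher and 15 lower in LinPos. No called potassium channel gene turned its direction there.

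**Figure D4:**
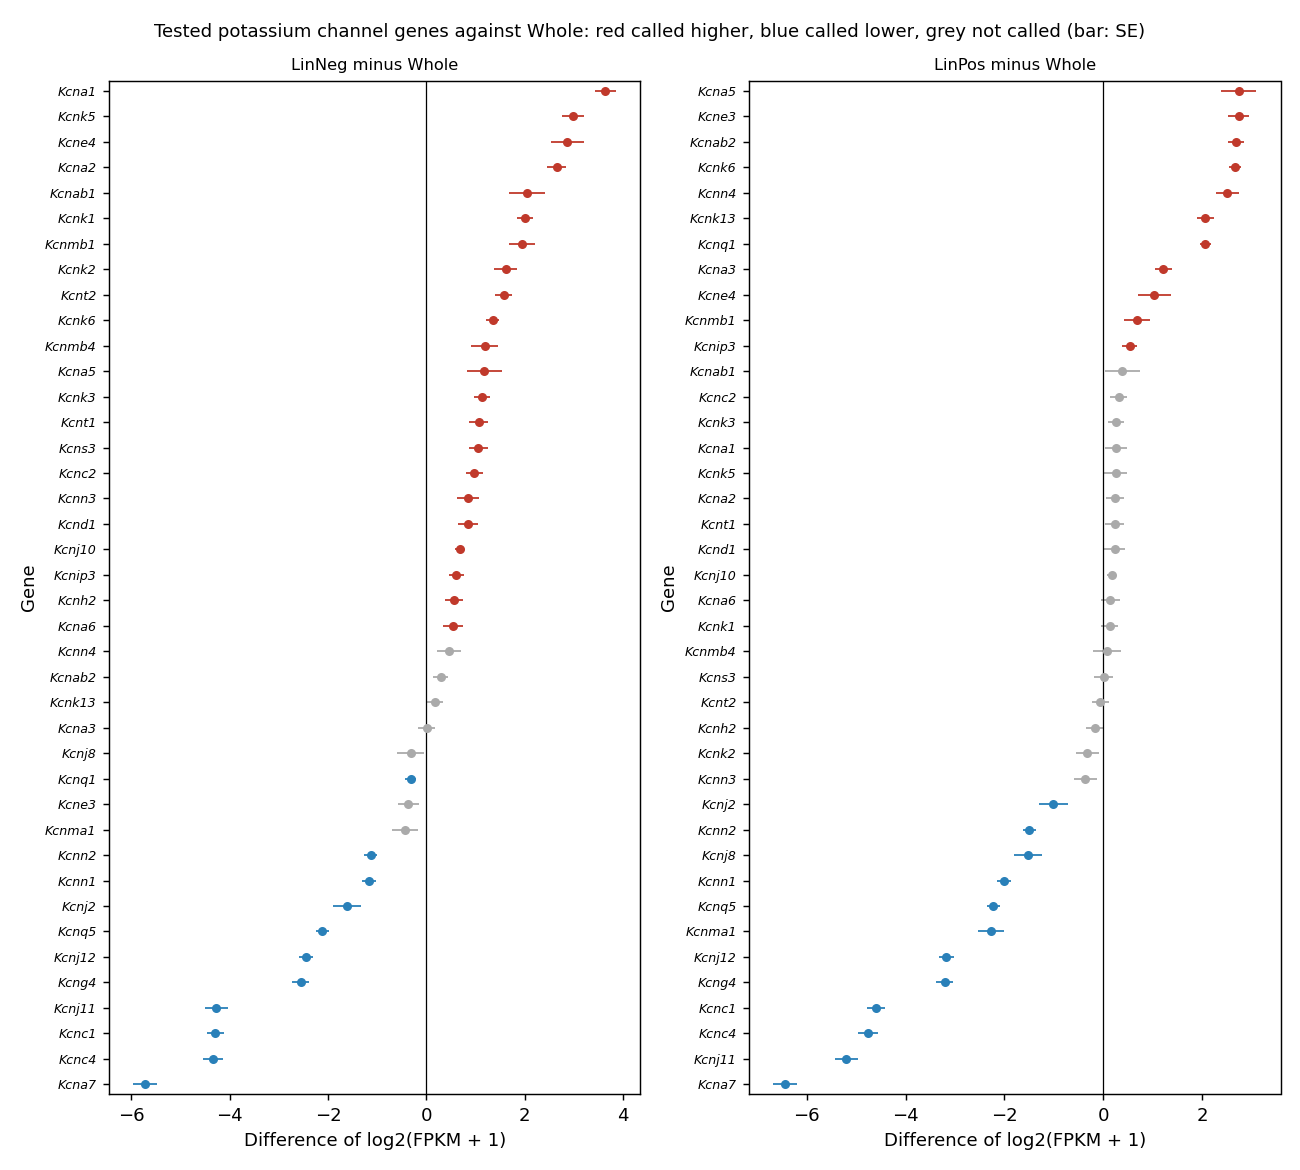
Log2 differences of 40 of the 42 tested potassium channel genes in LinNeg (left) and LinPos (right) against Whole, on the log2(FPKM + 1) scale, with limma estimates as points and their SE as bars. Red points (22 and 11 genes) were called higher and blue points (11 and 12) lower, and Kcna7 has the lowest value in both panels.

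Voltage-gated alpha subunits of fibre-rich libraries came first by level. Kcna7 (chromosome 7, 45405960 to 45411382, mm10), a Shaker-type channel known from skeletal muscle and heart, held 86.5, 90.7, 96.8 and 91.4 FPKM in the 4 Whole libraries. Its values were 1.33, 0.782, 3.12 and 3.78 in LinNegSca1Neg, 0.404, 0.407, 1.36 and 1.01 in LinNeg, 0.0857, 0.0878, 0.0155 and 0.0898 in LinPos and 0.101, 0.001 and 0.001 in LinNegSca1Pos. The Whole libraries thus stood apart from all others, and within LinNegSca1Neg and LinNeg replicates 3 and 4 held the higher values. Its mean was 91.3 ± 4.25 FPKM in Whole (SD, n = 4), and the log2 difference from Whole was -5.72 ± 0.24 in LinNeg (SE, limma adjusted p = 1e-12) and -6.43 ± 0.24 in LinPos (limma adjusted p = 1.2e-13). It was lower in LinNegSca1Pos than in LinNegSca1Neg, too (-1.54 ± 0.26, limma adjusted p = 8.5e-05), and lower in LinPos than in LinNeg (-0.71 ± 0.24, limma adjusted p = 0.0204), a call lost in set A (0.067), with a pseudocount of 5 FPKM (0.157), and on leaving out LinNeg replicate 3 (0.0763) or 4 (0.0557).

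Kcnc4 (chromosome 3, 107438303 to 107458898) and Kcnc1 (chromosome 7, 46396468 to 46438704) encode Shaw-type subunits, known for fast repolarisation. Kcnc4 held 25, 24.4, 24.6 and 38.8 FPKM in Whole, 0.216, 0.289, 0.926 and 0.329 in LinNeg, 0.253, 0.212, 1.12 and 1.04 in LinNegSca1Neg, 0.213, 0.32 and 0.506 in LinNegSca1Pos and 0.183, 0.001, 0.001 and 0.03 in LinPos. Replicate 4 was the high library of Whole. Kcnc1 held 22.5, 22.2, 23.9 and 25.7 FPKM in Whole, 0.307, 0.298, 1.45 and 1.43 in LinNegSca1Neg, 0.23, 0.283, 0.335 and 0.165 in LinNeg, 0.00626, 0.0128, 0.0271 and 0.00561 in LinPos and 0.00888, 0.0171 and 0.001 in LinNegSca1Pos. The LinNegSca1Neg libraries high in Kcnc1 were again replicates 3 and 4. Against Whole, the log2 difference in LinNeg was -4.34 ± 0.20 for Kcnc4 (limma adjusted p = 3.9e-12) and -4.29 ± 0.18 for Kcnc1 (limma adjusted p = 7.5e-13), and in LinPos it was -4.77 ± 0.20 (limma adjusted p = 6.2e-13) and -4.60 ± 0.18 (limma adjusted p = 1.5e-13). Between LinPos and LinNeg neither was called (limma adjusted p = 0.0914 and 0.166), although a fit of these groups alone called both lower in LinPos (0.0438 and 0.0118) and so did a pseudocount of 0.1 FPKM (0.00437 and 0.00155). When that fit also held a replicate block, Kcnc1 was called (limma adjusted p = 0.0263), and in set B Kcnc4 was (0.0435).

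Kcng4 (chromosome 8, 119623854 to 119635680), a subunit that forms no channel alone and modifies those of other voltage-gated subunits, held 6.52, 7.93, 8.36 and 12.2 FPKM in Whole, 0.678, 0.389, 1.12 and 0.412 in LinNeg and 0.569, 0.6, 0.998 and 1.17 in LinNegSca1Neg. LinNegSca1Pos and LinPos held 0.593, 0.286 and 0.34 and 0.0392, 0.0536, 0.001 and 0.0469. The lowest Whole library was above every sorted library. Its log2 difference from Whole was -2.56 ± 0.17 in LinNeg (limma adjusted p = 3.7e-10) and -3.21 ± 0.17 in LinPos (limma adjusted p = 1.1e-11). Kcnq5, of the family that carries the M current of neurons, was highest in Whole as well, at 4.68 ± 0.911 FPKM (SD, n = 4), and stayed below 1 FPKM in every sorted library.

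Myofibre markers differed between the same libraries. Per 1000 FPKM of the 12 summed myofibre markers, Kcna7 was at 0.794 to 1.06 FPKM in the Whole libraries, 0.114 to 0.284 in LinNeg and 0.149 to 0.306 in LinNegSca1Neg. The same ratio for Kcnc1 was 0.206 to 0.262 in Whole, 0.0279 to 0.144 in LinNeg and 0.0561 to 0.0854 in LinNegSca1Neg. Both ratios were highest in Whole, with no overlap. For the inward rectifier Kcnj11 the ratio was 0.335 to 0.46 in Whole, 0.186 to 0.478 in LinNeg and 0.206 to 0.612 in LinNegSca1Neg, so that the groups overlapped, and for Kcnj12 it was 0.0841 to 0.0969, 0.123 to 0.381 and 0.107 to 0.56, higher in every LinNeg and LinNegSca1Neg library than in any Whole library. The part of residual fibre RNA in the LinNeg and LinNegSca1Neg values was not tested.

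**Figure D5:**
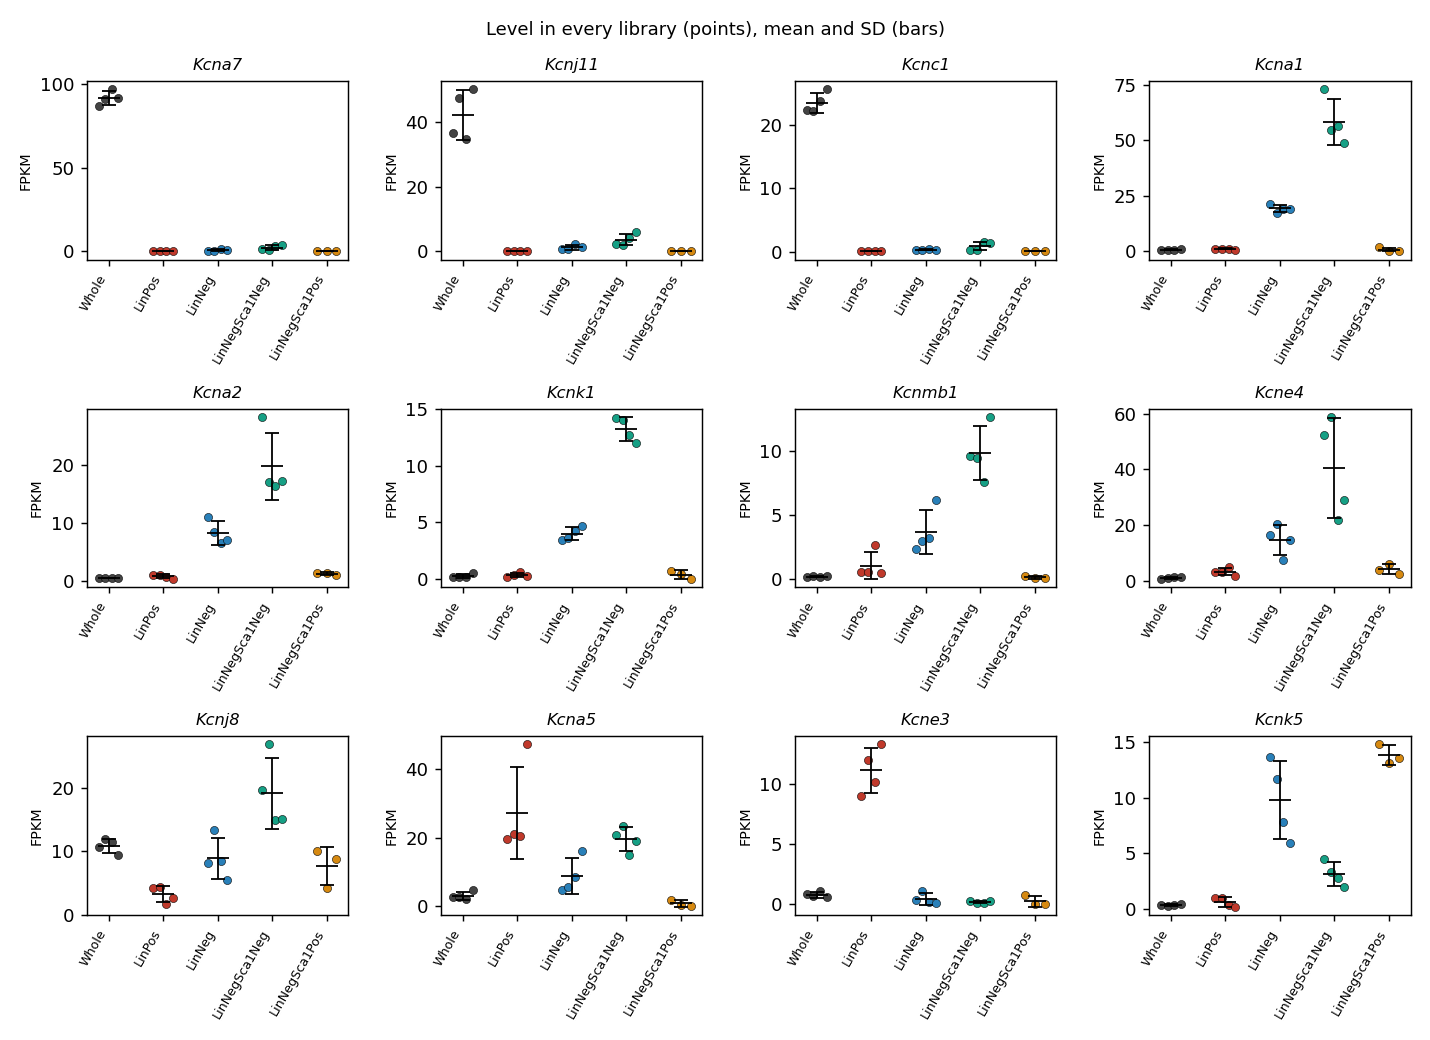
FPKM in each library (points) with the group mean and SD (bars) for 12 of the potassium channel genes described at length. Kcna7, Kcnj11 and Kcnc1 are high in Whole, 6 genes from Kcna1 to Kcnj8 peak in LinNegSca1Neg, Kcna5 and Kcne3 in LinPos, and Kcnk5 in LinNegSca1Pos.

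A second set of voltage-gated subunits peaked in LinNegSca1Neg. Kcna1 (chromosome 6, 126636463 to 126645801), a Shaker-type channel known from myelinated nerve and Schwann cells, held 73, 54.5, 56.3 and 48.6 FPKM in LinNegSca1Neg and 21.4, 17.2, 19.1 and 18.9 in LinNeg. It held 1.65, 0.141 and 0.0706 in LinNegSca1Pos, 1.01, 1.08, 1.08 and 0.583 in LinPos and 0.57, 0.619, 0.62 and 0.633 in Whole. Every LinNegSca1Neg library stood above every LinNeg library, and every LinNeg library above the rest. The mean of 58.1 ± 10.5 FPKM (SD, n = 4) in LinNegSca1Neg was the highest of any of the 92 genes in a sorted fraction. Its log2 difference was -5.30 ± 0.23 in LinNegSca1Pos against LinNegSca1Neg (limma adjusted p = 8.6e-12), -3.38 ± 0.22 in LinPos against LinNeg (limma adjusted p = 2.2e-10) and 3.64 ± 0.22 in LinNeg against Whole (limma adjusted p = 7.6e-11).

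Kcna2 (chromosome 3, 107101567 to 107115005), which assembles with Kcna1 in myelinated axons, was also highest in LinNegSca1Neg and next in LinNeg. Its libraries held 28.4, 17.1, 16.4 and 17.2 FPKM in LinNegSca1Neg, 11.1, 8.39, 6.51 and 7 in LinNeg, 1.38, 1.3 and 0.944 in LinNegSca1Pos, 1.03, 0.952, 0.709 and 0.266 in LinPos and 0.389, 0.486, 0.496 and 0.428 in Whole. Replicate 1 was the high library in both LinNegSca1Neg and LinNeg. Its log2 difference was -3.21 ± 0.21 in LinNegSca1Pos against LinNegSca1Neg (limma adjusted p = 7.2e-10) and -2.41 ± 0.19 in LinPos against LinNeg (limma adjusted p = 3.8e-09). Kcna6, the neighbour of Kcna1 and Kcna5 on chromosome 6 (126708329 to 126740674), had its highest mean there, too, at 2.15 ± 0.863 FPKM (SD, n = 4) against 0.203 ± 0.0675 in LinNegSca1Pos (n = 3, log2 difference -1.34 ± 0.21, limma adjusted p = 3.5e-05). Kcnh2, of the ether-a-go-go family that repolarises the heart, was at 2.41 ± 0.761 FPKM in LinNegSca1Neg and 0.0774 ± 0.0483 in LinNegSca1Pos (log2 difference -1.64 ± 0.19, limma adjusted p = 1.1e-06). The 10 nerve sheath markers summed to 1788 to 2865 FPKM in LinNegSca1Neg, 641 to 974 in LinNeg, 12.7 to 149.8 in LinNegSca1Pos, 29.5 to 46.4 in LinPos and 56.5 to 61 in Whole, and their part in these differences was not tested. Within LinNegSca1Pos, replicate 1 held both the highest nerve sheath sum and the highest Kcna1 value. That library also held the highest myofibre, mural, leukocyte and endothelial sums of its group. In LinNegSca1Neg the nerve sheath sum was highest in replicate 3 and Kcna1 in replicate 1. In LinNeg, replicate 1 held the lowest nerve sheath sum and the highest Kcna1 value.

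In LinPos the leading voltage-gated subunit was Kcna5 (chromosome 6, 126532551 to 126535555), known from atrial muscle, vascular smooth muscle and macrophages. Kcna5 held 19.5, 21, 20.6 and 47.2 FPKM in LinPos and 20.8, 23.4, 15 and 19 in LinNegSca1Neg. LinNeg held 4.63, 5.67, 8.53 and 16.1, Whole 2.58, 2.57, 2.2 and 4.67 and LinNegSca1Pos 1.85, 0.298 and 0.145. Replicate 4 stood far above the others in LinPos and was the highest in LinNeg and Whole, too, and the LinPos and LinNegSca1Neg libraries overlapped. The log2 difference was 1.56 ± 0.35 in LinPos against LinNeg (limma adjusted p = 0.00106), 2.75 ± 0.35 in LinPos against Whole (limma adjusted p = 1.4e-06) and -3.65 ± 0.38 in LinNegSca1Pos against LinNegSca1Neg (limma adjusted p = 3.3e-07). In LinNeg against Whole it was 1.18 ± 0.35 (limma adjusted p = 0.00652), a call lost under median-of-ratios scaling (0.0509) and in set A (0.0825).

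Other voltage-gated subunits of lower level were highest in LinPos or LinNegSca1Pos. Kcnq1, a slow channel of heart and epithelia, was at 4.48 ± 0.773 FPKM in LinPos (SD, n = 4) and at 0.0437 ± 0.0626 in LinNeg (log2 difference 2.38 ± 0.11, limma adjusted p = 2.6e-12). Kcna3, the Shaker-type channel of T lymphocytes and macrophages, was called higher in LinPos than in LinNeg as well (1.21 ± 0.18, limma adjusted p = 1.2e-05), from a mean of 1.47 ± 0.959 FPKM in LinPos. Both Kcnq1 and Kcna3 passed the filter through LinPos only. In LinNegSca1Pos the highest voltage-gated means were those of Kcns3, a modifier that forms no channel alone, at 2.39 ± 1.07 FPKM (SD, n = 3), and of Kcnd1, a transient A-type channel, at 2.12 ± 1.05 FPKM. Only Kcnd1 differed from LinNegSca1Neg past the threshold (1.18 ± 0.22, limma adjusted p = 0.00025). For Kcns3 the difference was 0.48 ± 0.21 (limma adjusted p = 0.0653), and it was called without LinNegSca1Neg replicate 1 or 2 or without LinNegSca1Pos replicate 2 (limma adjusted p from 0.0121 to 0.0362), in set B (0.00666) and under median-of-ratios scaling (0.0315).

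Among inward rectifiers, the pore-forming subunits of channels that close on ATP separated by group. Kcnj11 (chromosome 7, 46097123 to 46100764), the subunit known from skeletal muscle, heart and beta cells, held 36.5, 47.4, 34.7 and 50 FPKM in Whole. It held 2.37, 2.13, 4.26 and 5.91 in LinNegSca1Neg, 0.826, 0.727, 2.23 and 1.35 in LinNeg, 0.152, 0.148, 0.288 and 0.0682 in LinPos and 0.215, 0.104 and 0.001 in LinNegSca1Pos. Whole stood apart, and replicates 3 and 4 were the high libraries of LinNegSca1Neg and LinNeg. Against Whole, the log2 difference of Kcnj11 was -4.27 ± 0.23 in LinNeg (limma adjusted p = 2.4e-11) and -5.20 ± 0.23 in LinPos (limma adjusted p = 1.1e-12). Kcnj8 (chromosome 6, 142564939 to 142571356), the subunit known from smooth muscle and pericytes, held 19.7, 26.9, 15 and 15.1 FPKM in LinNegSca1Neg and 10.8, 12, 11.4 and 9.38 in Whole. LinNeg held 8.24, 13.3, 8.47 and 5.5, LinNegSca1Pos 10.02, 4.24 and 8.81 and LinPos 4.23, 4.46, 1.75 and 2.65. All LinNegSca1Neg libraries were above all others, and LinNeg overlapped with Whole. Kcnj8 was lower in LinNegSca1Pos than in LinNegSca1Neg (-1.25 ± 0.30, limma adjusted p = 0.00188), in LinPos than in LinNeg (-1.21 ± 0.28, limma adjusted p = 0.00123) and in LinPos than in Whole (-1.52 ± 0.28, limma adjusted p = 7.8e-05). Between LinNeg and Whole it was not called (-0.32 ± 0.28, limma adjusted p = 0.322), except lower in LinNeg under median-of-ratios scaling (0.0115).

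These channels need a sulphonylurea receptor, and its genes lie beside those of the pores. Abcc9 (chromosome 6, 142587862 to 142702274) neighbours Kcnj8, and Abcc8 (chromosome 7, 46104523 to 46180033) neighbours Kcnj11. Both were chosen for naming after their values were seen. Abcc9 was at 45.3 ± 3.57 FPKM in Whole (SD, n = 4), 17.2 ± 3.3 in LinNegSca1Neg and 11.2 ± 3.49 in LinNeg (n = 4 each), 5.79 ± 1.5 in LinNegSca1Pos (n = 3) and 4.16 ± 1.32 in LinPos (n = 4). Abcc8 was at 0.474 ± 0.0518 FPKM in Whole, where its neighbour Kcnj11 was highest, and at 1.2 ± 0.506 in LinNegSca1Neg. The receptor gene at high level in Whole was thus the neighbour of Kcnj8. Abcc9 was lower in LinNegSca1Pos than in LinNegSca1Neg, and differed on the log2 scale by -1.43 (limma adjusted p = 5.5e-05).

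Kcnj2 and Kcnj12 encode strong inward rectifiers, which clamp the resting voltage of muscle and endothelium. Kcnj2 (chromosome 11, 111066164 to 111076825) held 16.8, 16.5, 20.1 and 10.6 FPKM in Whole, 12.1, 11.1, 7.78 and 11.2 in LinNegSca1Neg and 6.49, 6.11, 13.2 and 5.18 in LinPos. LinNeg held 3.12, 3.67, 3.72 and 8.63 and LinNegSca1Pos 0.794, 0.457 and 0.0391. Whole, LinNegSca1Neg and LinPos overlapped, and LinNegSca1Pos was below all other groups. Kcnj2 was lower in LinNegSca1Pos than in LinNegSca1Neg (-3.03 ± 0.31, limma adjusted p = 2.7e-07), in LinNeg than in Whole (-1.61 ± 0.29, limma adjusted p = 7.9e-05) and in LinPos than in Whole (-1.01 ± 0.29, limma adjusted p = 0.00451, and 0.0643 in set B). LinPos against LinNeg was not called (0.60 ± 0.29, limma adjusted p = 0.0925), but without LinNeg replicate 4 (0.0115) and in set A (0.0428) it was. Kcnj12 (chromosome 11, 61022564 to 61073267) held 9.15, 9.41, 8.19 and 10.9 FPKM in Whole, 2.19, 1.95, 2.34 and 2.71 in LinNegSca1Neg and 0.658, 0.721, 1.47 and 0.88 in LinNeg. LinPos held 0.112, 0.0916, 0.375 and 0.0501 and LinNegSca1Pos 0.206, 0.001 and 0.001. Kcnj12 was therefore a gene of Whole with a low level in LinNegSca1Neg, and against Whole its log2 difference was -2.44 ± 0.14 in LinNeg (limma adjusted p = 5.7e-11). Kcnj10, the glial inward rectifier, reached 1.85 ± 0.223 FPKM in LinNegSca1Neg (SD, n = 4) and was lower in LinNegSca1Pos (-1.49 ± 0.10, limma adjusted p = 8.7e-10). It passed the filter through LinNegSca1Neg only.

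Leak channels divided the sorted fractions among themselves. Kcnk5 (chromosome 14, 20140058 to 20181782), a leak channel sensitive to pH outside the cell, held 14.8, 13.1 and 13.6 FPKM in LinNegSca1Pos and 13.7, 11.7, 7.83 and 5.95 in LinNeg. It held 4.49, 3.34, 2.74 and 1.98 in LinNegSca1Neg, 0.921, 0.975, 0.322 and 0.173 in LinPos and 0.334, 0.223, 0.315 and 0.372 in Whole. In LinNeg and LinNegSca1Neg alike, replicates 1 and 2 were above replicates 3 and 4. Its mean in LinNegSca1Pos was 13.8 ± 0.885 FPKM (SD, n = 3). Kcnk5 was higher in LinNegSca1Pos than in LinNegSca1Neg (1.88 ± 0.25, limma adjusted p = 5.4e-06), higher in LinNeg than in Whole (2.98 ± 0.23, limma adjusted p = 2.2e-09) and lower in LinPos than in LinNeg (-2.73 ± 0.23, limma adjusted p = 8.8e-09). The 10 mesenchymal progenitor markers, highest in LinNegSca1Pos, summed to 13792 to 19346 FPKM in LinNeg and 2228 to 6124 in LinNegSca1Neg. By library, the sum in replicates 1 to 4 was 13792, 16442, 16291 and 19346 FPKM in LinNeg and 2228, 2851, 6124 and 4785 in LinNegSca1Neg. In both groups, as in LinNegSca1Pos, replicate 1 held the highest Kcnk5 value and the lowest marker sum. The part of these markers' cells in the Kcnk5 level was not tested.

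Kcnk6 (chromosome 7, 29221928 to 29232522), a weakly rectifying leak channel found in lysosomes and in macrophages, held 9.14, 9.51, 9.54 and 11.9 FPKM in LinPos and 4.66, 5.03 and 4.26 in LinNegSca1Pos. LinNeg held 3.43, 3.52, 2.98 and 3.64, LinNegSca1Neg 1.24, 1.33, 1.47 and 1.93 and Whole 0.671, 0.613, 0.617 and 1.04. The 5 groups did not overlap. It was the one leak channel higher both in LinPos than in LinNeg (1.32 ± 0.13, limma adjusted p = 5.4e-08) and in LinNegSca1Pos than in LinNegSca1Neg (1.19 ± 0.14, limma adjusted p = 1.1e-06). Kcnk13, a leak channel known from microglia, was at 3.69 ± 0.498 FPKM in LinPos (SD, n = 4) and at 0.273 ± 0.201 in LinNeg (log2 difference 1.89 ± 0.17, limma adjusted p = 1.6e-08).

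Kcnk1, Kcnk2 and Kcnk3 had their highest means in LinNegSca1Neg. Kcnk1 (chromosome 8, 125995102 to 126030688), a weak inwardly rectifying leak channel, held 14.2, 14.1, 12.8 and 12 FPKM there and 3.49, 3.62, 4.28 and 4.67 in LinNeg. The other groups held 0.753, 0.425 and 0.001 in LinNegSca1Pos, 0.177, 0.363, 0.648 and 0.298 in LinPos and 0.154, 0.166, 0.188 and 0.508 in Whole, all below the lowest LinNeg library. Its log2 difference was -3.39 ± 0.18 in LinNegSca1Pos against LinNegSca1Neg (limma adjusted p = 5.7e-11) and 2.00 ± 0.16 in LinNeg against Whole (limma adjusted p = 4.4e-09). Kcnk2 (chromosome 1, 189207930 to 189344192), which opens on stretch of the membrane, held 8.55, 9.11, 16.3 and 9.49 FPKM in LinNegSca1Neg, with replicate 3 high, and 3.5, 4.1, 3.83 and 8.71 in LinNeg, with replicate 4 high. LinNegSca1Pos held 1.67, 1.18 and 2.04, Whole 0.99, 0.742, 0.643 and 1.15 and LinPos 0.364, 0.715, 0.263 and 0.717. Kcnk2 was lower in LinNegSca1Pos than in LinNegSca1Neg (-2.14 ± 0.25, limma adjusted p = 1.2e-06) and in LinPos than in LinNeg (-1.93 ± 0.23, limma adjusted p = 1e-06). Kcnk3, an acid-sensitive leak channel of pulmonary artery muscle and other cells, was at 2.95 ± 1.07 FPKM in LinNegSca1Neg (SD, n = 4) and at 0.0616 ± 0.0769 in LinNegSca1Pos (n = 3, log2 difference -1.85 ± 0.18, limma adjusted p = 9.8e-08).

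Of the calcium- or sodium-activated channels, Kcnma1 (chromosome 14, 23298694 to 24004205) encodes the pore of the large-conductance channel that relaxes smooth muscle. Kcnma1 held 13.2, 12.7, 10.4 and 11.3 FPKM in LinNegSca1Neg and 6.58, 6.61, 6.58 and 6.04 in Whole. LinNeg held 3.75, 4.22, 3.78 and 6.73, LinNegSca1Pos 0.543, 2.98 and 0.377 and LinPos 0.448, 0.379, 1.14 and 0.342. LinNegSca1Neg was above all other groups, and the Whole libraries were close together. The log2 difference was -2.66 ± 0.28 in LinNegSca1Pos against LinNegSca1Neg (limma adjusted p = 3.7e-07), -1.83 ± 0.26 in LinPos against LinNeg (limma adjusted p = 8.3e-06) and -2.27 ± 0.26 in LinPos against Whole (limma adjusted p = 3.2e-07). In LinNeg against Whole it was -0.44 ± 0.26 (limma adjusted p = 0.144), and called under median-of-ratios scaling (0.00884) and in a fit of these groups alone (0.0417).

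The auxiliary subunits of this channel had levels of their own. Kcnmb1 (chromosome 11, 33963013 to 33973638), the subunit of smooth muscle that raises its calcium sensitivity, held 9.63, 9.47, 7.6 and 12.7 FPKM in LinNegSca1Neg and 2.36, 2.96, 3.21 and 6.2 in LinNeg. LinPos held 0.544, 0.509, 2.64 and 0.457, Whole 0.157, 0.177, 0.1 and 0.247 and LinNegSca1Pos 0.218, 0.0162 and 0.0513. Replicate 3 of LinPos was high, at the level of LinNeg. Kcnmb1 was lower in LinNegSca1Pos than in LinNegSca1Neg (-3.29 ± 0.28, limma adjusted p = 2.9e-08) and higher in LinNeg than in Whole (1.94 ± 0.26, limma adjusted p = 3.2e-06). In LinPos it was higher than in Whole (0.68 ± 0.26, limma adjusted p = 0.0271), a call lost without LinPos replicate 3 (limma adjusted p = 0.125, log2 difference 0.36) or Whole replicate 3 (0.0573), under median-of-ratios scaling (0.06) and with a pseudocount of 5 FPKM (0.154). The mural marker sum, 285 to 645 FPKM in LinPos, was highest in its replicate 3. Kcnmb4, a subunit known from neurons, was at 4.89 ± 2.73 FPKM in LinNegSca1Neg (SD, n = 4) and at 0.208 ± 0.179 in LinNegSca1Pos (n = 3, log2 difference -2.18 ± 0.31, limma adjusted p = 1.1e-05). In LinNegSca1Neg its libraries held 2.19, 3.27, 8.32 and 5.77 FPKM, with replicates 3 and 4 above replicates 1 and 2, while for Kcne4 and Kcnab1, replicates 1 and 2 were the higher ones. Gamma subunits of the same channel are encoded outside the Kcn genes, and among the partner genes Lrrc38, named after its values were seen, was at 10.4 ± 3.9 FPKM in Whole (SD, n = 4) and 0.228 ± 0.271 in LinNeg (log2 difference -3.18, limma adjusted p = 3.1e-11).

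Kcnn4 (chromosome 7, 24370263 to 24385212), the intermediate-conductance channel of lymphocytes, macrophages and erythroid cells, held 6.25, 4.51, 11.4 and 3.81 FPKM in LinPos. It held 0.436, 0.546, 1.28 and 0.574 in LinNeg, 0.85, 1.31, 0.318 and 1.04 in LinNegSca1Neg, 0.294, 0.582 and 0.458 in LinNegSca1Pos and 0.202, 0.297, 0.225 and 0.166 in Whole. No library of another group reached the lowest LinPos value. It was higher in LinPos than in LinNeg (2.06 ± 0.24, limma adjusted p = 6.4e-07) and than in Whole (2.52 ± 0.24, limma adjusted p = 2.5e-08). The small-conductance channels went other ways. Kcnn1 was at 3.34 ± 0.597 FPKM in Whole (SD, n = 4), 1.9 ± 0.221 in LinNegSca1Pos (n = 3) and 0.526 ± 0.198 in LinNegSca1Neg (n = 4), and was higher in LinNegSca1Pos than in LinNegSca1Neg (0.94 ± 0.15, limma adjusted p = 4.1e-05). Kcnn3 was at 3.03 ± 1.44 FPKM in LinNegSca1Neg against 0.814 ± 0.43 in LinNegSca1Pos (-1.12 ± 0.24, limma adjusted p = 0.0008). The sodium-activated Kcnt1 was at 2.46 ± 1.25 FPKM in LinNegSca1Neg against 0.0282 ± 0.0471 in LinNegSca1Pos (-1.68 ± 0.21, limma adjusted p = 2.7e-06), whereas its relative Kcnt2 was at 1.81 ± 0.471 and 1.64 ± 0.588 FPKM in these groups, not called (-0.10 ± 0.19, limma adjusted p = 0.671), and was at 2.66 ± 0.977 in LinNeg.

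Auxiliary subunits held the next highest means of the sorted fractions after Kcna1. Kcne4 (chromosome 1, 78816949 to 78820025), which inhibits several voltage-gated channels, held 52.2, 58.9, 21.7 and 29.1 FPKM in LinNegSca1Neg and 16.3, 20.2, 7.53 and 14.5 in LinNeg. LinNegSca1Pos held 4.04, 6.09 and 2.32, LinPos 3.15, 3.28, 4.99 and 1.84 and Whole 0.591, 1, 1.23 and 1.42. Replicates 1 and 2 of LinNegSca1Neg were well above replicates 3 and 4, and all 4 were above every LinNeg library. Its log2 difference was -2.97 ± 0.36 in LinNegSca1Pos against LinNegSca1Neg (limma adjusted p = 2e-06), -1.83 ± 0.33 in LinPos against LinNeg (limma adjusted p = 0.00014) and 2.87 ± 0.33 in LinNeg against Whole (limma adjusted p = 4.9e-07). Kcnab1 (chromosome 3, 65109643 to 65378219), a beta subunit that speeds the inactivation of Shaker-type channels, held 35.6, 44.4, 13.1 and 20.5 FPKM in LinNegSca1Neg and 9.24, 14, 4.19 and 9.38 in LinNeg. LinPos held 1.82, 1.79, 4.31 and 0.998, Whole 1.05, 0.883, 1.71 and 1.72 and LinNegSca1Pos 1.15, 0.693 and 0.948. Replicate 2 was its highest library and replicate 3 its lowest in both LinNegSca1Neg and LinNeg. Kcnab1 was lower in LinNegSca1Pos than in LinNegSca1Neg (-3.79 ± 0.39, limma adjusted p = 2.4e-07) and in LinPos than in LinNeg (-1.66 ± 0.36, limma adjusted p = 0.00072).

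Mural markers differed between the same libraries. Their sum in replicates 1 to 4 of LinNegSca1Neg was 3592, 4217, 2391 and 3207 FPKM, in the order of the Kcne4, Kcnab1 and Kcnj8 values with Kcnj8 nearly level in replicates 3 and 4. Kcnma1 and Kcnmb1 did not follow that order. In replicates 1 to 4 of LinNeg the mural sum was 1031, 1386, 1166 and 1736 FPKM. There Kcnma1 had the order of the sum, while Kcne4, Kcnab1, Kcnj8 and Kcnmb1 did not. Over groups the mural sum was 1031 to 1736 FPKM in LinNeg, 285 to 645 in LinPos, 197 to 219 in Whole and 111 to 234 in LinNegSca1Pos, and 12 of 12 markers had a mean of at least 1 FPKM in LinNegSca1Neg. The part of mural cells in the levels of Kcne4, Kcnab1, Kcnj8, Kcnma1 and Kcnmb1 was not tested.

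Kcne3 and Kcnab2 were the auxiliary subunits of LinPos. Kcne3 (chromosome 7, 100176670 to 100184869), which is known to assemble with the products of Kcnq1 in epithelia and of Kcnc4 in skeletal muscle, held 9.04, 12, 10.2 and 13.3 FPKM in LinPos. Whole held 0.822, 0.667, 1.15 and 0.588, LinNeg 0.333, 1.13, 0.226 and 0.0709, LinNegSca1Neg 0.265, 0.106, 0.108 and 0.314 and LinNegSca1Pos 0.804, 0.001 and 0.001. The LinPos libraries stood alone, the group in which Kcnq1 was highest, while in Whole, where Kcnc4 was highest, every Kcne3 value was below 2 FPKM. Its log2 difference was 3.11 ± 0.21 in LinPos against LinNeg (limma adjusted p = 4.8e-10) and 2.74 ± 0.21 against Whole (limma adjusted p = 1.6e-09). In LinNeg against Whole it was -0.37 ± 0.21 (limma adjusted p = 0.131), and called lower without LinNeg replicate 2 (0.0158), in set B (0.0282) and under median-of-ratios scaling (0.0144). Kcnab2 (chromosome 4, 152390740 to 152477549), a beta subunit of leukocytes and neurons, held 8.81, 6.31, 12.1 and 6.6 FPKM in LinPos, and 0.561, 0.659, 1 and 0.772 in LinNeg. LinNegSca1Neg held 0.743, 0.64, 0.734 and 0.749, LinNegSca1Pos 0.65, 0.46 and 0.849 and Whole 0.363, 0.419, 0.297 and 0.642. It was higher in LinPos than in LinNeg (2.40 ± 0.16, limma adjusted p = 3.3e-10), so that the beta subunits Kcnab1 and Kcnab2 differed in opposite directions across the lineage gate. The leukocyte sum of 2051 to 5259 FPKM and the endothelial sum of 652 to 1978 FPKM in LinPos were 14 to 51.1 and 61.6 to 93.2 in LinNeg, and their part in Kcne3, Kcnab2, Kcnn4, Kcna5 and Kcnk6 was not tested.

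The sodium-potassium pump and its regulators, which restore the gradient the channels spend, were taken with cotransporters, receptors and other partners as a list of 28 genes, of which 21 were tested. In LinPos against LinNeg 4 were higher and 10 lower, in LinNegSca1Pos against LinNegSca1Neg 3 higher and 8 lower, in LinNeg against Whole 6 higher and 10 lower, and in LinPos against Whole 6 higher and 12 lower. That is 66.7%, 52.4%, 76.2% and 85.7% called, against 51.1%, 54.5%, 69.3% and 71.8% of all tested genes, so that across the Sca1 gate the share was near that of all genes. The pump's beta subunits split, with Atp1b1 at 226 ± 54.7 FPKM in Whole (SD, n = 4) and 6.63 ± 1.4 in LinNeg, and Atp1b3 at 29.2 ± 2.04 in Whole and 113 ± 22.6 in LinNeg. Their log2 differences in LinNeg against Whole were -4.88 (limma adjusted p = 7.7e-12) and 1.90 (limma adjusted p = 1.1e-08). Its small regulators split as well. Fxyd1, phospholemman, was at 351 ± 78.6 FPKM in Whole and 330.2 ± 85.2 in LinNegSca1Pos (n = 3), Fxyd6 at 139 ± 25.8 in LinNegSca1Neg, and Fxyd5, dysadherin, at 281 ± 90.5 in LinPos. In LinPos against LinNeg Fxyd5 was higher by 3.23 on the log2 scale (limma adjusted p = 1.4e-10), and Fxyd1 and Fxyd6 had differences of -3.66 (limma adjusted p = 2e-10) and -2.90 (limma adjusted p = 9.6e-09).

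The order of the groups, set out for pairs of relatives, differed within families. Of the neighbouring Shaker-type genes on chromosome 6, Kcna1 and Kcna6 were highest in LinNegSca1Neg and Kcna5 in LinPos, with Kcna5 at 19.5 ± 3.55 FPKM in LinNegSca1Neg. On chromosome 7 Kcna7, Kcnj11 and Kcnc1, which lie between 45405960 and 46438704, were all highest in Whole. Kcnj14, in the same stretch at 45816467 to 45824747, was below the filter, with its highest mean, 0.104 FPKM, in LinPos. Among the leak channels Kcnk5 and Kcnk6 were higher and Kcnk1, Kcnk2 and Kcnk3 lower in LinNegSca1Pos than in LinNegSca1Neg, and Kcnk13 was not called (-0.40 ± 0.18, limma adjusted p = 0.071; without LinNegSca1Pos replicate 3 it was called lower, with 0.028). In the auxiliary class Kcne4 and Kcnab1 were lower and Kcne3 and Kcnab2 higher in LinPos than in LinNeg. Kcnip3, a calcium-binding partner of A-type channels, and Kcnc2, a Shaw-type relative of Kcnc1, were both called higher in LinNegSca1Pos than in LinNegSca1Neg, from means of 1.53 ± 0.233 and 1.55 ± 0.633 FPKM in LinNegSca1Pos (n = 3), with log2 differences of 0.75 ± 0.16 and 1.21 ± 0.18 (limma adjusted p = 0.00072 and 1.9e-05).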

How the data were processed

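RNA of 19 libraries was sequenced with a stranded poly(A) kit, per the labels' protocols. The deposited values are FPKM per gene, made by the authors. The submitters' processing notes name the build mm10 and the tools Cufflinks, TopHat2, Bowtie2 and bcl2fastq, with versions, annotation and strand setting not given in the sources used here. Of 23846 rows, 325 held status words and were left out, and 192 symbols were listed more than once, none of them a potassium channel gene. No sample's labels matched 4 further value columns, which were left out. The lowest listed value was 0.001 FPKM. Other columns of the deposited table were not used.

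Because FPKM differ from counts, count models were not applied. The 14043 genes that reached 1 FPKM in 3 or more libraries were tested on log2(FPKM + 1), a scale that understates differences of low genes, with limma (empirical Bayes with trend, two-sided, 14 residual degrees of freedom). All 5 groups entered a single fit, and Benjamini-Hochberg adjustment ran over all tested genes of a comparison, with a threshold of 0.05. On simulated data of 14043 genes, true log2 differences of 2 were recovered in 94% to 97% and of 1 in 48% to 74% over the comparisons. Tools were Python 3.11.15 with pandas 2.3.3, numpy 2.4.6 and matplotlib 3.10.9, and R 4.3.3 with limma 3.58.1.

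The channel genes, the marker and partner lists and the alternatives were chosen with earlier results of these data known. Genes with a group mean of at least 2 FPKM are named, those with at least 5 are given with the value of every library, and of the partners the 6 with the largest group mean are named. By name, 2 of the channel genes and 1 of the partners are not reported here, although they stay in all counts, sums and fits. Alternatives were pseudocounts of 0.1 and 5 FPKM, no filter or one of 5 FPKM, median-of-ratios scaling, a fit of the compared groups only, the replicate number as a block, set A or set B (each with all Whole and LinNegSca1Pos libraries) and leaving out each library in turn. Replicate numbers paired LinPos with LinNeg. Across genes, the deviation of a LinPos library from its group mean correlated with that of the LinNeg library of the same number at 0.704, 0.575, 0.441 and 0.629, each the best match, although no label states what the numbers stand for. Depth is unknown, so no counting interval is given. The smallest step between low values, taken relative to the finest library, ran from 1.0 to 3.7, and a larger step means that low FPKM values are less precise.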

Additional observations from a re-analysis of the deposited data

Results flagged for a closer look

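In groups of 4 libraries, a value was singled out by Dixon's criterion, when its gap to the next took most of the range of the group. Of 83 groups with a mean of at least 1 FPKM among the tested channel genes, 14 had such a value. The criterion is set to flag about 5% of groups of independent normal values. Here it was applied to FPKM of genes that share libraries, so the share that chance would give is unknown. Whole replicate 4 was apart in 3 of them, with Kcna5 at 4.67 FPKM (the others 2.20 to 2.58), Kcnc4 at 38.8 (24.4 to 25.0) and Kcnma1 at 6.04 (6.58 to 6.61). Whole replicate 2 held the lowest Kcnn2 value, 1.46 FPKM. LinPos replicate 4 held the highest Kcna5 value, 47.2 FPKM (19.5 to 21.0), and Kcnk6, 11.9 (9.14 to 9.54). LinPos replicate 3 held the highest Kcnj2 value, 13.2 FPKM (5.18 to 6.49), and Kcnmb1, 2.64 (0.457 to 0.544). LinNeg replicate 4 held the highest Kcnj2 value, 8.63 FPKM (3.12 to 3.72), Kcnk2, 8.71 (3.50 to 4.10), and Kcnma1, 6.73 (3.75 to 4.22). In LinNegSca1Neg the highest Kcna2 value was 28.4 FPKM in replicate 1 (16.4 to 17.2), the highest Kcnk2 value 16.3 in replicate 3 (8.55 to 9.49) and the highest Kcnh2 value 3.55 in replicate 4 (1.95 to 2.11).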

How the results depend on the processing

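The counts of potassium channel genes called (36, 30, 35 and 24 in the order LinPos against LinNeg, LinNegSca1Pos against LinNegSca1Neg, LinNeg against Whole and LinPos against Whole) moved by more than 1.5 times only with a filter of 5 FPKM in 3 libraries, which left 22 of these genes to test and gave 19, 18, 18 and 15. Of all genes tested with that filter 50.3%, 56.7%, 72.6% and 75.7% were called, against 51.1%, 54.5%, 69.3% and 71.8% in the main fit. Leaving out each library in turn gave 34 to 36, 30 to 31, 34 to 35 and 23 to 25 channel genes. The share of all tested genes was then 48% to 49.6%, 47.6% to 53.1%, 65.8% to 67.4% and 68.4% to 70.2%. A replicate block, in fits of the compared groups only, gave 38, 30, 36 and 27. With that block 60.4%, 42.6%, 69.7% and 69.6% of all tested genes were called. In the other 3 comparisons at least 1 pair of same-numbered libraries correlated under 0.1 (the Sca1 fractions at 0.077, -0.0316 and 0.18), and LinNeg was not checked against its Sca1 fractions. Set A gave 35, 31, 33 and 30, and set B 34, 32, 34 and 24. Of all tested genes, 48.1%, 59.3%, 72.6% and 74.2% were called in set A and 45.7%, 58.9%, 69.1% and 72.9% in set B. Over 168 values of a gene in a comparison and 2734 alternatives, 2645 kept their side of the threshold, 32 calls were lost, 57 were gained and 0 turned direction. The causes of lost calls were not tested. Depth is not stated, and values near the floor of 0.001 FPKM carry little precision.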
